A study of Homo sapiens with 12 samples.

Results

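SRGAP2 and FAM72 are neighbouring genes on chromosome 1 that were duplicated together in the human lineage, and their copies lie as 4 neighbouring pairs (FAM72A with SRGAP2, FAM72B with SRGAP2C, FAM72C with SRGAP2D and FAM72D with SRGAP2B). The 5 member genes, SRGAP2, SRGAP2B, FAM72A, FAM72B and FAM72D, were taken by symbol from the 25365 rows of the expression table. The table also lists SRGAP2C, SRGAP2D and FAM72C, so that it holds 8 copies of the 2 families in all. SRGAP2B and FAM72D were chosen by their values in wild-type (WT) cells with pyridostatin against vehicle, in which their adjusted p lay under 0.05 and their log2 difference exceeded 1 in size. All measures of that comparison are therefore given as a description, without a test.

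RNA-seq was performed on A549 cells, an epithelial line from a human lung adenocarcinoma, either WT or PARP3-/-. Each genotype received DMSO vehicle or 1 μM pyridostatin, a small molecule that stabilizes G-quadruplex (G4) DNA, for 24 h before RNA was isolated, and each of the 4 groups held 3 biological replicates (12 libraries). The PARP3-/- cells carry a Cas9-made deletion in the first exon of PARP3 and were cloned by serial dilution, so that genotype and clone cannot be told apart. The deposited values are FPKM, read numbers scaled to transcript length and library depth, so that levels can be compared between genes per length. In bulk RNA, fewer cells that express a gene and less RNA per cell cannot be told apart.

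SRGAP2 encodes a GTPase-activating protein for Rac with an F-BAR domain, which binds and bends the cell membrane, and it acts in Slit-Robo signalling and in the migration and maturation of neurons. SRGAP2B and SRGAP2C are partial duplicates that keep the F-BAR part and lack the GTPase-activating part, and SRGAP2D is a shorter transcribed pseudogene. The FAM72 genes encode nearly identical small proteins expressed in proliferating cells. FAM72A binds the nuclear uracil DNA glycosylase UNG, which removes uracil from DNA, and lowers its level.

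The copies differ at few positions. In GENCODE release 29 (GRCh38), the coding sequence of FAM72B differed from that of FAM72A at 2 of 450 bases (T281C and G364A). FAM72D differed at 3 (T6C, G295A and T373C), and FAM72C at 4 (T6C, G245T, G295A and T373C). Positions are counted from 1 at the first base of the FAM72A start codon, with the base of FAM72A written first. The stretch from coding position 7 to 244, 238 bases, was identical in all 4. The following 75-base windows, the length of 1 sequenced read, cover coding positions 237 to 311 and are shown because they tell all 4 FAM72 copies apart. Capitals mark the 3 differing positions, and the sequences are written 5′ to 3′ on the coding strand. They lie at chr1:206195796-206195870 (FAM72A, minus strand), chr1:121177252-121177326 (FAM72B, minus strand), chr1:143964899-143964973 (FAM72C, minus strand) and chr1:145103013-145103087 (FAM72D, plus strand).
FAM72A: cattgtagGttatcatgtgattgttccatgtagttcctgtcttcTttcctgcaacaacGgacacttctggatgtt
FAM72B: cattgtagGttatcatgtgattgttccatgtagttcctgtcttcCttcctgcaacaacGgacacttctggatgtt
FAM72C: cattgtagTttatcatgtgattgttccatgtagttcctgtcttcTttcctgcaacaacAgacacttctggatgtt
FAM72D: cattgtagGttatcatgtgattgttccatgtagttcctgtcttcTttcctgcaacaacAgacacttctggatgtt

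In the SRGAP2 family, SRGAP2B differed from SRGAP2 at 5 of the 1355 coding bases that could be aligned without a gap, and SRGAP2C at 7 of 1356. SRGAP2D was left out of this comparison. The window with the most differences, coding positions 683 to 757 counted from the SRGAP2 start codon, is shown because a read that lies in it separates SRGAP2, SRGAP2B and SRGAP2C (T705C in SRGAP2B, and G704A, T705C and G749A in SRGAP2C). It spans an exon junction, and its 2 exon parts in SRGAP2 lie on the plus strand at chr1:206392885-206392904 and chr1:206393545-206393599 (GRCh38).
SRGAP2: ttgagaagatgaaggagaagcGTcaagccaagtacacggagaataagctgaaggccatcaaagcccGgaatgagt
SRGAP2B: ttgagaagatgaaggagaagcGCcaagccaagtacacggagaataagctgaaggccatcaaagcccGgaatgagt
SRGAP2C: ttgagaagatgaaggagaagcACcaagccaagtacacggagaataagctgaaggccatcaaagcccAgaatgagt

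Of all 75-base windows of the principal transcript, 81.8% occurred in no other gene's transcript for SRGAP2. The share was 13.6% for SRGAP2B, 31.8% for SRGAP2C and 3.17% for SRGAP2D. Among the FAM72 copies it was 12.4% for FAM72A, 23.2% for FAM72B, 8.41% for FAM72C and 10.8% for FAM72D. FAM72C shared 85.7% of its windows with FAM72D and 72.9% with FAM72A. How reads that match several copies were assigned is not given in the sources used here. The values of single copies are uncertain in this respect, and sums over the copies of each family are given below beside them. The principal transcripts span 1021 to 7204 bases in the SRGAP2 family and 2297 to 2398 bases in the FAM72 family. FPKM are scaled to length, so a read assigned to a shorter SRGAP2 copy adds more to the sum than one assigned to a longer copy.

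The depth was estimated at 23000000 to 32000000 reads per library from the step that 1 read makes in lowly expressed genes with 1 annotated transcript. At that depth the median number of reads behind a value was about 1036 for SRGAP2, 160 for SRGAP2B, 402 for FAM72A, 660 for FAM72B and 264 for FAM72D. WT vehicle replicate 2 stood apart, with 3.61% of tested genes over 0.5 log2 units from the other 2 libraries of its group, against 1.41% to 1.74% in the other libraries. All 5 epithelial markers were expressed (KRT8, KRT18, KRT19, EPCAM and CDH1, 5150 to 6806 FPKM summed). The 4 alveolar markers reached at most 0.145 FPKM in sum and the 3 leukocyte markers at most 0.00776 FPKM. The summed fibroblast markers ran from 0.607 to 1.03 FPKM in WT libraries and from 1.24 to 1.68 FPKM in libraries labelled PARP3-/-, and the part of this in the genotype comparisons was not tested. Only 1 of the 3 fibroblast markers averaged at least 1 FPKM, and the highest single value was 1.63 FPKM. PARP3 was not lower in the libraries labelled PARP3-/-. Its level was 3.83, 3.40 and 3.96 FPKM in WT vehicle libraries and 4.92, 4.07 and 4.25 FPKM in vehicle libraries labelled PARP3-/-. With pyridostatin it was 3.74, 3.57 and 4.05 FPKM in WT libraries and 4.73, 4.71 and 4.30 FPKM in those labelled PARP3-/- (exact two-sided permutation test, p = 0.10 for each treatment, the smallest p that 3 against 3 libraries can give). The value covers the whole transcript, so a deletion within 1 exon is not checked by it.

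FAM72B had the highest level of the 8 copies, and SRGAP2 had the smallest SD over the 12 libraries. Over the 12 libraries FAM72B measured 10.9 ± 1.06 FPKM (SD, n = 12, likewise below), FAM72A 5.81 ± 2.33 FPKM and FAM72D 4.39 ± 1.70 FPKM. SRGAP2 measured 6.41 ± 0.333 FPKM and SRGAP2B 2.91 ± 1.61 FPKM. Of the copies that are not members, FAM72C measured 7.72 ± 2.23 FPKM, SRGAP2C 4.87 ± 1.04 FPKM and SRGAP2D 0.612 ± 0.894 FPKM. In descending order the copies were FAM72B, FAM72C, SRGAP2, FAM72A, SRGAP2C, FAM72D, SRGAP2B and SRGAP2D, and the ranges of all neighbours in this order overlapped. FAM72B (9.32 to 12.5 FPKM) did not overlap SRGAP2 (5.87 to 7.01 FPKM). All 5 members passed the filter of a mean of at least 1 FPKM, and SRGAP2D did not.

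**Figure D1:**
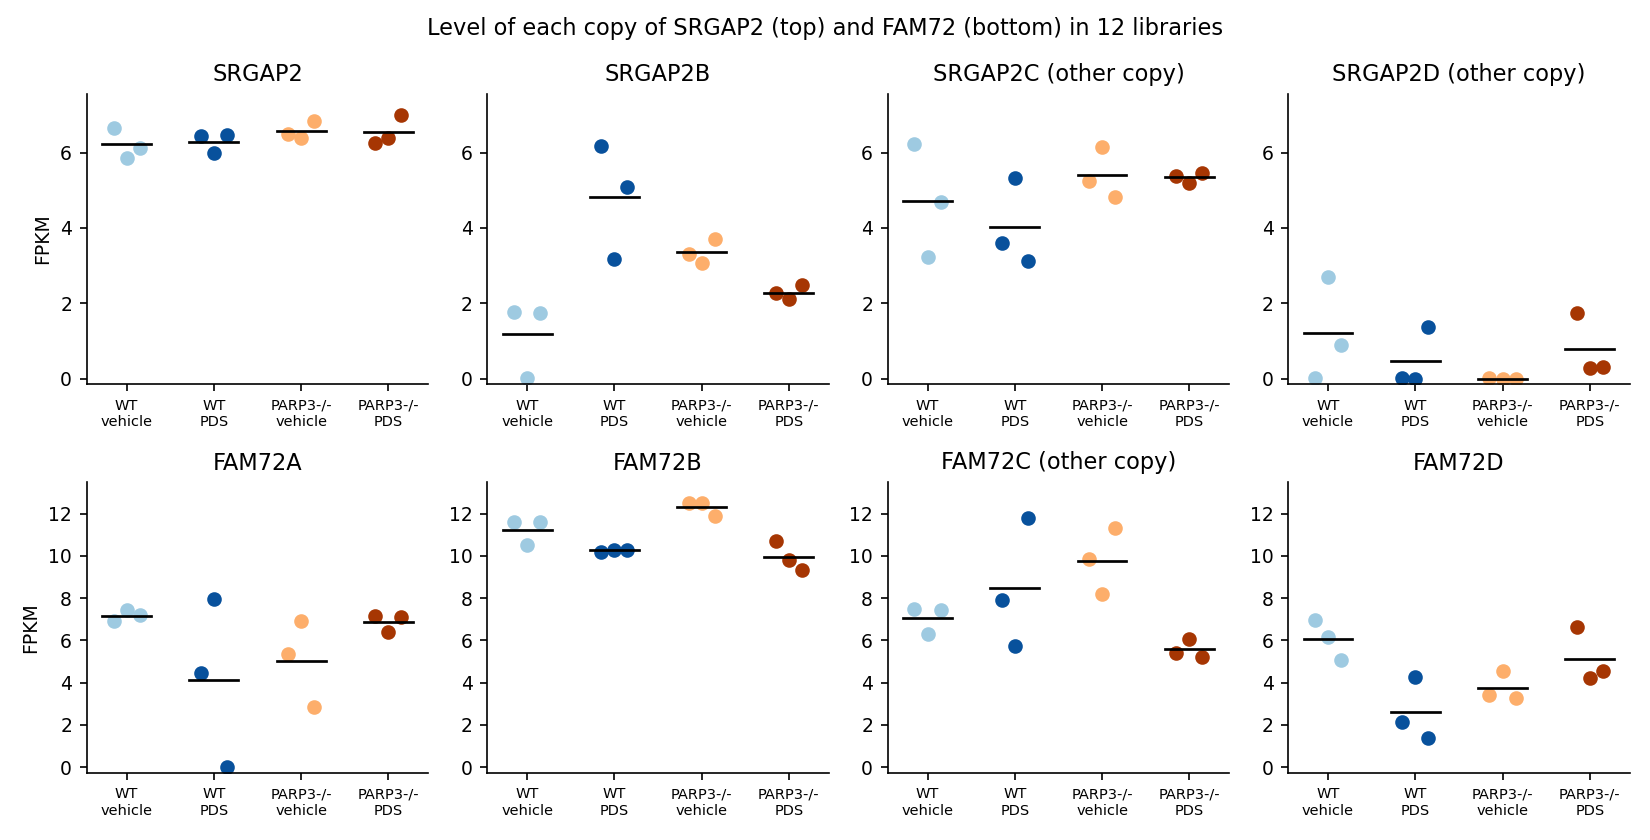
Level in FPKM (y axis) of each copy in the 12 libraries, by group (x axis, PDS = pyridostatin), with points for libraries and a line for the group mean. SRGAP2 lies between 5.87 and 7.01 FPKM and FAM72B between 9.32 and 12.5 FPKM in all libraries, while SRGAP2B and FAM72A each have 1 library near 0.

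Single libraries held almost none of a copy that their replicates expressed. SRGAP2B was 1.78, 0.0243 and 1.75 FPKM in WT vehicle replicates 1 to 3. The value of replicate 2 corresponds to about 1.5 reads, and in that library SRGAP2D was at its highest, 2.71 FPKM. FAM72A was 4.45, 7.94 and 6.71e-04 FPKM in WT pyridostatin replicates 1 to 3, the last below the 0.0160 FPKM of 1 read. In that library FAM72C, with 11.8 FPKM, was at its highest of all 12. SRGAP2D lay below the value of 1 read in 6 libraries, among them all 3 vehicle libraries labelled PARP3-/-.

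The sums over all copies were more even than most single copies, though SRGAP2 (within-group coefficient of variation 5.27%) and FAM72B (4.57%) were more even than the sums (6.55% and 6.54%). SRGAP2 and its copies summed to 11.8 to 16.2 FPKM, and the FAM72 copies to 23.4 to 33.0 FPKM. The share of SRGAP2B in its sum ran from 0.205% to 38.1%, and that of SRGAP2 itself from 39.7% to 49.6%. FAM72A held 0.00287% to 28.1% of the FAM72 sum, FAM72D 5.84% to 22.3%, and FAM72B 34.6% to 43.9%. Within groups the sum over the 4 FAM72 copies had an SD of 1.89 FPKM, against 3.12 FPKM if the copies had varied independently. For the 4 SRGAP2 copies the SD was 0.969 FPKM against 1.67 FPKM. The variance of the sum was thus 0.365 and 0.336 of the summed variances of the copies in FPKM. The SRGAP2 ratio depends on this unit, since its copies differ in length, and a ratio weighted by length was not computed.

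**Figure D2:**
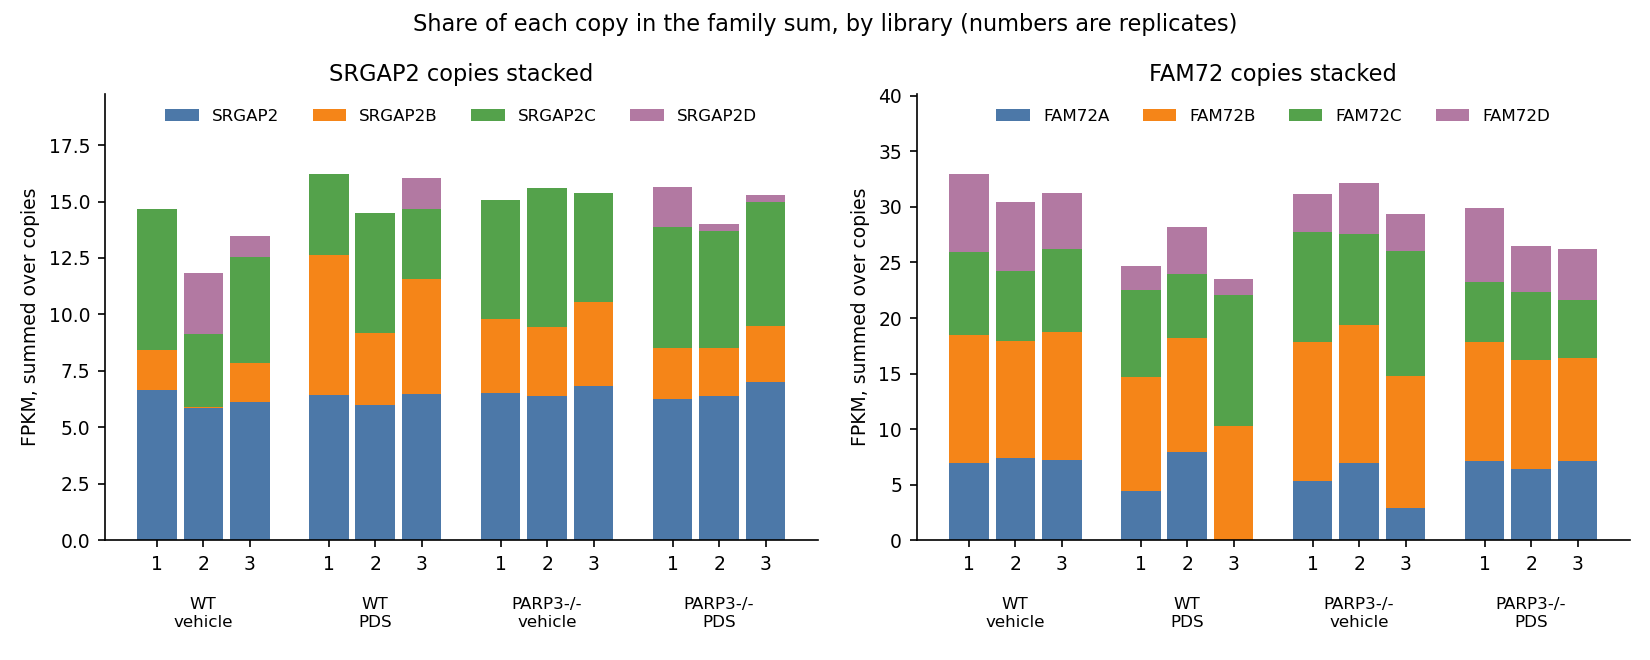
FPKM of the 4 copies of each family stacked per library (x axis, replicate numbers by group, PDS = pyridostatin). The SRGAP2 stacks reach 11.8 to 16.2 FPKM and the FAM72 stacks 23.4 to 33.0 FPKM, with SRGAP2B missing in WT vehicle replicate 2 and FAM72A in WT pyridostatin replicate 3.

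Some pairs of copies moved against each other between replicates and others together. The deviations of FAM72A and FAM72C from their group means had a correlation of r = -0.98 over the 12 libraries, those of FAM72C and FAM72D r = -0.67, and those of SRGAP2C and SRGAP2D r = -0.72. For FAM72A and FAM72D the coefficient was positive (r = 0.68). These coefficients are descriptions, since the copies share reads and libraries. FAM72B, with the most sequence of its own in the family, had r = 0.16 with FAM72A, r = -0.03 with FAM72C and r = 0.41 with FAM72D. SRGAP2, with the most in its own family, had r = 0.66 with SRGAP2B, r = 0.13 with SRGAP2C and r = -0.51 with SRGAP2D. Genomic neighbours gave r = -0.48 for SRGAP2 with FAM72A and r = -0.48 for SRGAP2B with FAM72D, and r = 0.52 for SRGAP2C with FAM72B and r = 0.21 for SRGAP2D with FAM72C.

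Among 15 other duplicated families with at least 2 expressed copies, such as NOTCH2, GPR89 and CCZ1, the same ratio of variances had a median of 1.28 (0.279 to 2.00). It was below 1 in 2 of the 15, SLX1 (0.279) and SMN (0.533). Only copies that averaged at least 1 FPKM entered these families, most of which held 2 copies. The SRGAP2 and FAM72 ratios rest on 4 copies each, among them SRGAP2D with a mean of 0.612 FPKM. Summing only the member copies, which leaves out FAM72C, SRGAP2C and SRGAP2D, gave ratios of 1.66 for FAM72A, FAM72B and FAM72D and 1.42 for SRGAP2 and SRGAP2B. The sums over members were accordingly less even (within-group coefficient of variation 15.7% and 12.6%) than the sums over all copies (6.54% and 6.55%).

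The spread between replicates followed the sequence that a copy has to itself only in part. SRGAP2, with 81.8% of its windows in no other gene, had a within-group SD of 0.0656 on the log2(FPKM + 1) scale, and 29.2% of tested genes had a smaller one. FAM72B had 0.0618, with 24.9% of genes below it. The other members were among the most variable of all tested genes. FAM72A had an SD of 0.871, SRGAP2B 0.464 and FAM72D 0.357, above 98.2%, 97.7% and 97.5% of tested genes. Summed over all copies the SD was 0.0935 for SRGAP2 and 0.0950 for FAM72, near the median gene (0.0842).

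**Figure D3:**
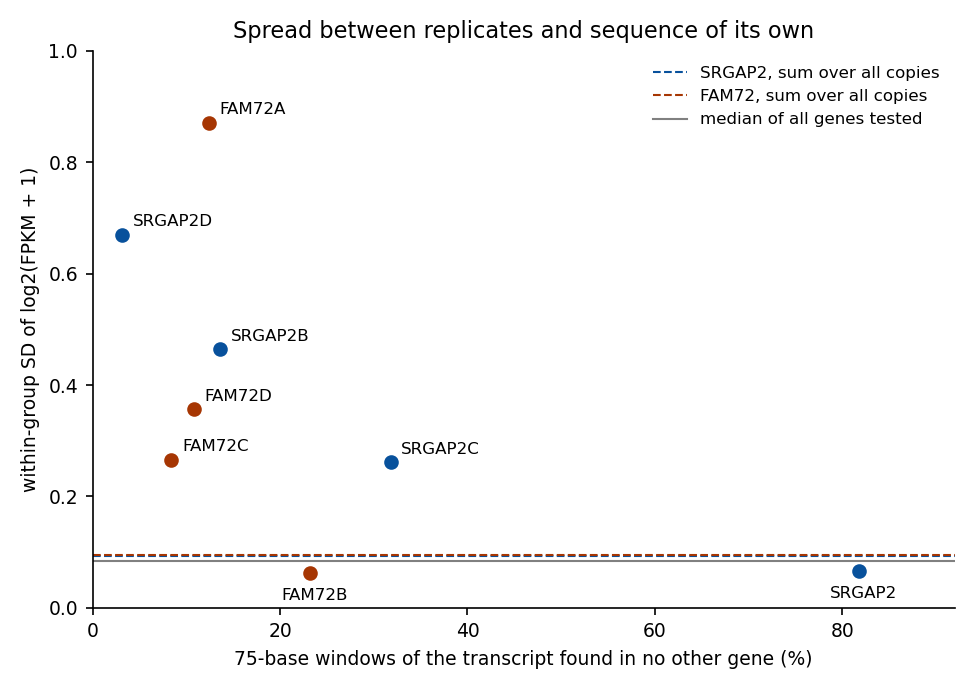
Within-group SD of log2(FPKM + 1) over 12 libraries (y axis) against the percentage of 75-base transcript windows found in no other gene (x axis), 1 point per copy. SRGAP2 (0.0656) and FAM72B (0.0618) lie below the line of the median tested gene (0.0842), the other 6 copies lie above 0.2, and the sums over all copies (dashed, 0.0935 and 0.0950) lie near it.

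In WT cells, SRGAP2B was higher and FAM72D lower with pyridostatin, the values on which they were selected. SRGAP2B measured 6.17, 3.18 and 5.09 FPKM with pyridostatin against 1.78, 0.0243 and 1.75 FPKM with vehicle, a log2 difference of 1.52 ± 0.332 (SE). Without WT vehicle replicate 2 the difference was 1.04. FAM72D measured 2.15, 4.27 and 1.37 FPKM against 6.98, 6.17 and 5.09 FPKM, a difference of -1.05 ± 0.256. Neither pair of groups overlapped. FAM72A measured 4.45, 7.94 and 6.71e-04 FPKM against 6.91, 7.44 and 7.18 FPKM. Its difference was -1.16 ± 0.619, and -0.23 without WT pyridostatin replicate 3. In the same cells SRGAP2 was at 6.44, 5.98 and 6.46 FPKM against 6.66, 5.87 and 6.12 FPKM, a difference of 0.02 ± 0.0557. FAM72B was at 10.2, 10.3 and 10.3 FPKM against 11.6, 10.5 and 11.6 FPKM, a difference of -0.12 ± 0.0519. SRGAP2B and FAM72D were 2 of the 6 genes past both thresholds in this comparison (0.0505% of the 11881 tested, and 4.17% at the adjusted p alone), which is how they were chosen. Of all tested genes 23.1% had groups that did not overlap here.

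Summed over copies, the log2 differences in WT cells were smaller than those of SRGAP2B and FAM72D alone, while the changes of FAM72 in FPKM did not shrink likewise. The mean went from 24.5 to 17.0 FPKM for the FAM72 members and from 31.6 to 25.4 FPKM for all FAM72 copies. For FAM72D alone it went from 6.08 to 2.59 FPKM. The mean of SRGAP2B went from 1.18 to 4.82 FPKM and that of the SRGAP2 members from 7.40 to 11.1 FPKM. For all 4 SRGAP2 copies the change was smaller, from 13.3 to 15.6 FPKM. SRGAP2 and SRGAP2B together were at 12.6, 9.17 and 11.6 FPKM with pyridostatin against 8.44, 5.89 and 7.87 FPKM (log2 difference 0.53 ± 0.125). All 4 SRGAP2 copies summed to 16.2, 14.5 and 16.1 FPKM against 14.7, 11.8 and 13.5 FPKM, a difference of 0.22 ± 0.0715 with overlapping groups. This sum over 4 copies was not weighted by transcript length, so it also changes when reads are assigned to copies of another length. FAM72A, FAM72B and FAM72D summed to 16.8, 22.5 and 11.6 FPKM against 25.5, 24.2 and 23.9 FPKM (-0.55 ± 0.183). With FAM72C included, the FAM72 sum was 24.7, 28.3 and 23.4 FPKM against 33.0, 30.5 and 31.3 FPKM, a difference of -0.31 ± 0.0721, and all pyridostatin libraries lay below all vehicle libraries.

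In the cells labelled PARP3-/-, FAM72B fell with pyridostatin and no other member passed the test. The difference between these libraries did not choose the members. The fit shares its spread over all 4 groups, however, so these libraries also entered the adjusted p of the WT comparison. FAM72B was at 10.7, 9.81 and 9.32 FPKM with pyridostatin and at 12.5, 12.5 and 11.9 FPKM with vehicle, so that the groups did not overlap. The log2 difference was -0.29 ± 0.0519, about 0.807 of the vehicle level (limma, adjusted p = 0.0111 over all genes tested). The adjusted p rose to 0.0505, 0.0510 and 0.0534 when vehicle replicate 2, pyridostatin replicate 2 or pyridostatin replicate 3 labelled PARP3-/- was left out. One of 5 members was thus called, against 5.56% of all 11881 genes.

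SRGAP2B was lower with pyridostatin in all 3 libraries labelled PARP3-/-, the opposite of the WT libraries. Its levels were 2.26, 2.10 and 2.49 FPKM with pyridostatin against 3.30, 3.06 and 3.71 FPKM with vehicle. The log2 difference of -0.41 (95% interval -1.14 to 0.33) did not pass the test with the spread shared by all 4 groups (adjusted p = 0.569). With only the 6 libraries of this comparison in the fit, the SE went from 0.332 to 0.0733 and the adjusted p was 0.0310. With WT vehicle replicate 2 alone left out of the full fit they were 0.162 and 0.134. Groups without overlap were found for 32.3% of all tested genes in this comparison.

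FAM72A, FAM72D and SRGAP2 overlapped between the treatments. FAM72A measured 7.15, 6.42 and 7.10 FPKM with pyridostatin against 5.37, 6.91 and 2.86 FPKM with vehicle (log2 difference 0.45, 95% interval -0.93 to 1.82, adjusted p = 0.758). FAM72D, which was lower with pyridostatin in WT cells, measured 6.65, 4.21 and 4.56 FPKM against 3.42, 4.53 and 3.28 FPKM (0.36, -0.20 to 0.93, adjusted p = 0.497). SRGAP2 measured 6.25, 6.40 and 7.01 FPKM against 6.5, 6.39 and 6.85 FPKM (-0.01, -0.13 to 0.12, adjusted p = 0.975). The interval of SRGAP2 is narrow, while those of FAM72A and FAM72D include changes in either direction.

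Of the copies outside the members, FAM72C measured 5.42, 6.07 and 5.22 FPKM with pyridostatin against 9.85, 8.19 and 11.3 FPKM. Its log2 difference of -0.71 ± 0.191 was larger than that of FAM72B but just missed the threshold (adjusted p = 0.0580). SRGAP2C overlapped between the treatments (5.38, 5.20 and 5.47 FPKM against 5.25, 6.15 and 4.82 FPKM, log2 difference -0.01, 95% interval -0.43 to 0.41).

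The sign of the FAM72 difference depended on which copies were summed. FAM72A, FAM72B and FAM72D summed to 24.5, 20.4 and 21.0 FPKM with pyridostatin and to 21.3, 23.9 and 18.0 FPKM with vehicle (log2 difference 0.06 ± 0.183, adjusted p = 0.906). With FAM72C the sums were 29.9, 26.5 and 26.2 FPKM against 31.2, 32 and 29.4 FPKM (-0.16 ± 0.0721, adjusted p = 0.246). SRGAP2 and SRGAP2B summed to 8.51, 8.50 and 9.50 FPKM against 9.80, 9.45 and 10.6 FPKM (-0.15 ± 0.125, adjusted p = 0.569). All 4 SRGAP2 copies summed to 15.6, 14.0 and 15.3 FPKM against 15, 15.6 and 15.4 FPKM (-0.04 ± 0.0715, adjusted p = 0.848). No family sum passed the test in these libraries.

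**Figure D4:**
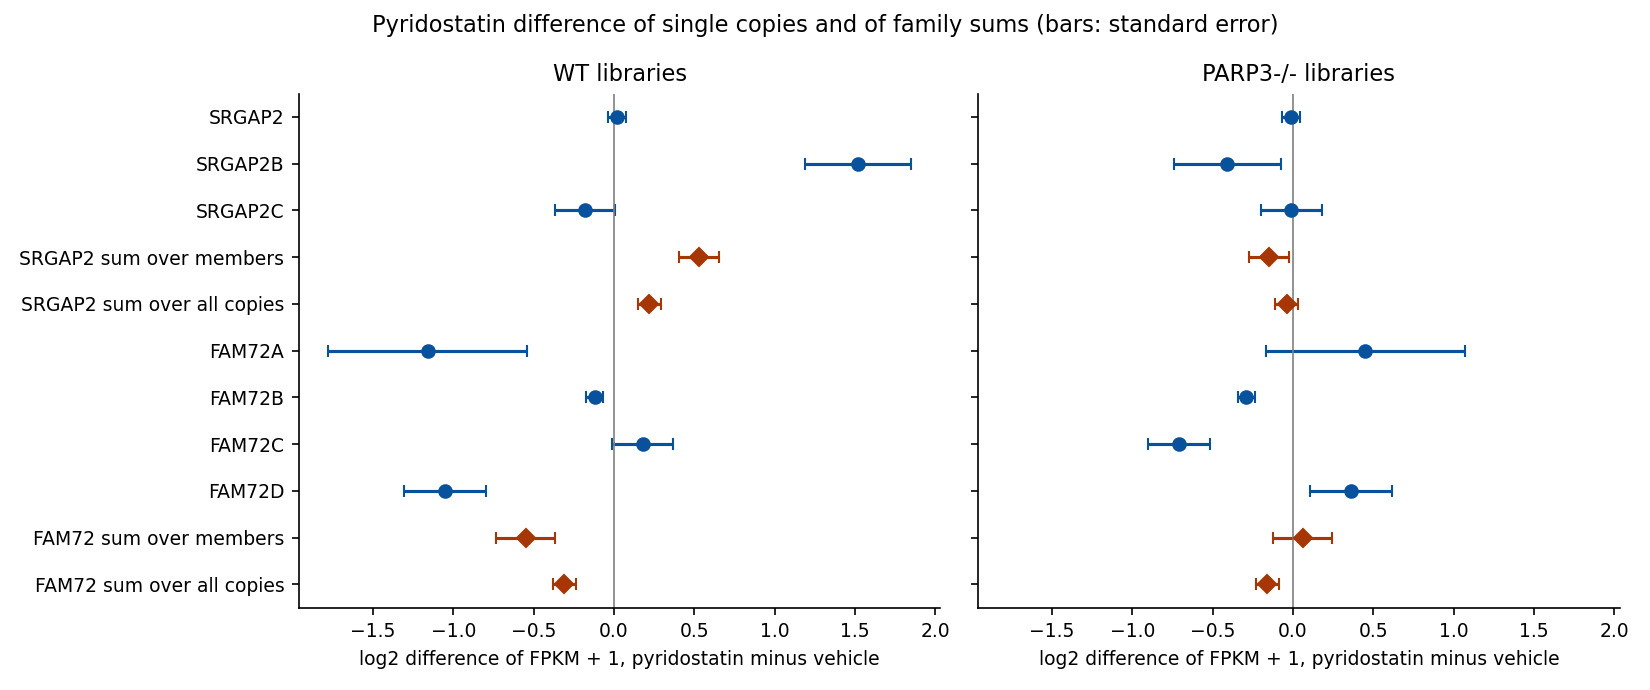
Log2 difference of FPKM + 1, pyridostatin minus vehicle (x axis), for single copies (circles) and family sums (diamonds) in WT libraries and libraries labelled PARP3-/-, with bars of 1 SE from the shared fit. In WT libraries SRGAP2B (1.52), FAM72A (-1.16) and FAM72D (-1.05) lie far from 0 and the sums over all copies (0.22 and -0.31) nearer to it, while in libraries labelled PARP3-/- the sums over all copies are -0.04 and -0.16.

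Between the genotypes SRGAP2, FAM72A and FAM72B did not pass the test. These comparisons use the same WT libraries as the one that chose SRGAP2B and FAM72D, so for those 2 genes, and for the family sums that hold them, only values are given. With vehicle, the log2 difference of libraries labelled PARP3-/- from WT was 0.07 for SRGAP2 (6.58 against 6.22 FPKM, adjusted p = 0.525). It was 0.12 for FAM72B (12.3 against 11.3 FPKM, adjusted p = 0.218) and -0.50 for FAM72A (5.04 against 7.17 FPKM, adjusted p = 0.722). Of all genes 9.41% were called. SRGAP2B measured 3.35 ± 0.331 against 1.18 ± 1.00 FPKM (SD, n = 3), a log2 difference of 1.13 that was 0.65 without WT vehicle replicate 2, and FAM72D 3.74 ± 0.685 against 6.08 ± 0.952 FPKM.

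With pyridostatin, SRGAP2 (6.55 against 6.29 FPKM, log2 difference 0.05, adjusted p = 0.654) and FAM72B (9.93 against 10.2 FPKM, -0.04, adjusted p = 0.679) were nearly level. FAM72A was at 6.89 against 4.13 FPKM (1.11, 95% interval -0.26 to 2.48, adjusted p = 0.317), with 1 WT library near 0, and the difference was 0.18 without that library. In this comparison 10.9% of genes were called. SRGAP2B measured 2.28 ± 0.197 against 4.82 ± 1.51 FPKM and FAM72D 5.14 ± 1.32 against 2.59 ± 1.5 FPKM, each the reverse of its order with vehicle.

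On the log2 scale the sums differed less between the genotypes than SRGAP2B and FAM72D did. With vehicle the sum of SRGAP2 and SRGAP2B differed by 0.39 (9.94 against 7.40 FPKM) and that of all 4 SRGAP2 copies by 0.19 (15.3 against 13.3 FPKM). The sum of all FAM72 copies differed by -0.03 with vehicle (30.9 against 31.6 FPKM) and by 0.11 with pyridostatin (27.5 against 25.4 FPKM). For all SRGAP2 copies the difference with pyridostatin was -0.06 (15 against 15.6 FPKM).

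Of the single copies of other duplicated families, the share called lay below that of all genes in each comparison, a difference that was not tested. Over 34 tested copies, 1 copy (2.94%, against 5.56% of all genes) was called with pyridostatin in libraries labelled PARP3-/- and 2 (5.88%, against 10.9%) between the genotypes with pyridostatin, and of 19 family sums 0 were called in any of the 4 comparisons (limma, with 1 to 3 sums per comparison at an unadjusted p under 0.05). SLX1B, 1 of 2 copies of a structure-specific nuclease subunit, had a log2 difference of -2.86 (adjusted p = 0.0394) with pyridostatin in libraries labelled PARP3-/-, while the SLX1 sum differed by -0.04 (adjusted p = 0.838). NOTCH2NL was higher in libraries labelled PARP3-/- with pyridostatin (0.17, adjusted p = 0.0358, sum 0.23 with adjusted p = 0.0862). GTF2IP1, a pseudogene of the transcription factor gene GTF2I, was lower in the same comparison (-0.17, adjusted p = 0.0372, sum -0.08 with adjusted p = 0.657). Neither the WT pyridostatin comparison nor the vehicle genotype comparison called a copy (0 of 34, with 1 and 5 at an unadjusted p under 0.05).

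Genes of G2 and mitosis, the phases with which FAM72 expression is associated in proliferating cells, fell in part with pyridostatin. In libraries labelled PARP3-/-, 10 of 22 fell and 0 rose, where 5.56% of all genes were called, with a median log2 difference of -0.21 against 0.00 over all genes tested. The 5 with the smallest p were the kinesins KIF20A (-0.34, adjusted p = 0.00248) and KIF23 (-0.23, adjusted p = 0.00860), the mitotic kinase gene AURKA (-0.21, adjusted p = 0.00300), HMMR (-0.32, adjusted p = 0.00860) and the spindle factor gene TPX2 (-0.19, adjusted p = 0.0139). With a library left out, the number that fell ranged from 4, without pyridostatin replicate 2 labelled PARP3-/-, to 18. In WT libraries, where 4.17% of all genes were called, 4 of 22 fell (median -0.12), namely CENPA (-0.27, adjusted p = 0.0212), AURKB (-0.27, adjusted p = 0.0493), CDC20 (-0.27, adjusted p = 0.0497) and KIF20A (-0.19, adjusted p = 0.0497). This number ranged from 0, without WT pyridostatin replicate 1, to 7 with a library left out. It was also 0 with only the libraries of the comparison. FAM72B had log2 differences of -0.29 and -0.12 in the same 2 comparisons, and FAM72C -0.71 and 0.18. FAM72A had 0.45 and -1.16, and FAM72D 0.36 and -1.05, so the copies did not move as 1 with the mitosis genes.

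Between the genotypes, 3 of the 22 mitosis genes were lower in libraries labelled PARP3-/- with pyridostatin, where 10.9% of all genes were called (DLGAP5, -0.27 with adjusted p = 0.0216, AURKA, -0.12 with 0.0342, and KIF20A, -0.18 with 0.0369). The number ranged from 0, without pyridostatin replicate 2 labelled PARP3-/-, to 10 with a library left out. With vehicle, where 9.41% of all genes were called, 0 of 22 passed in limma (2 at an unadjusted p under 0.05). The smallest p were those of CENPA (-0.14, adjusted p = 0.159) and AURKB (0.16, adjusted p = 0.191).

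Of 10 tested genes of uracil and mismatch repair, the pathway in which FAM72A acts, UNG itself fell in both pyridostatin comparisons. UNG went from 59.3 to 48.7 FPKM in WT libraries (log2 difference -0.28, adjusted p = 0.00412) and from 64.7 to 53.0 FPKM in libraries labelled PARP3-/- (-0.28, adjusted p = 0.00338). The mismatch recognition gene MSH6 fell as well (-0.22, adjusted p = 0.0277 in WT, and -0.35, adjusted p = 0.00196 in libraries labelled PARP3-/-). Thus 2 and 3 of the 10 fell and 0 rose, where 4.17% and 5.56% of all genes were called, with medians of 0.00 and -0.10. With a library left out the numbers ranged from 1, without WT pyridostatin replicate 1 among others, to 3 and from 2 to 4. UNG was called under all 20 alternatives in both genotypes, and MSH6 under 14 of 20 in WT libraries. Between the genotypes only POLB, the polymerase of base excision repair, was called (limma, -0.26, adjusted p = 0.0380, with pyridostatin), where 10.9% of all genes were called. The call was kept under 11 of 20 alternatives (adjusted p = 0.0118 to 0.140), and 0 to 3 genes were lower with a library left out. With vehicle 0 of 10 passed in limma, where 9.41% of all genes were called, and 2 had an unadjusted p under 0.05. UNG (0.12, adjusted p = 0.102) and TDG (-0.14, adjusted p = 0.181) came nearest with vehicle.

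Slit-Robo genes, the pathway of SRGAP2, showed 0 calls among 7 tested with pyridostatin in either genotype (limma, with 2 and 0 at an unadjusted p under 0.05). The share called over all genes was 4.17% in WT libraries and 5.56% in those labelled PARP3-/-. The genes nearest to the threshold were RAC1 (-0.16, adjusted p = 0.127) and RHOA (-0.09, adjusted p = 0.200) in WT libraries, and SLIT3 (0.11, adjusted p = 0.376) and WASL (0.15, adjusted p = 0.573) in libraries labelled PARP3-/-. SLIT3, a ligand of the Robo receptors, was higher in libraries labelled PARP3-/- with vehicle (5.42 against 4.11 FPKM, 0.33, adjusted p = 0.00550) and with pyridostatin (5.92 against 4.42 FPKM, 0.35, adjusted p = 0.00358), and the small GTPase gene CDC42 was called with pyridostatin (0.17, adjusted p = 0.0421). Thus 1 of 7 was called between the genotypes with vehicle and 2 with pyridostatin, where 9.41% and 10.9% of all genes were called. CDC42 was called under 11 of 20 alternatives (adjusted p = 0.0254 to 0.155), and SLIT3 under all 19 in both comparisons. The SRGAP2 relative SRGAP3 averaged 0.184 FPKM and was not tested.

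Among 13 tested F-BAR genes, TRIP10, which links CDC42 to membrane curvature, rose with pyridostatin in WT libraries (32.6 to 43.9 FPKM, 0.42, adjusted p = 7.22e-04) and in those labelled PARP3-/- (32.6 to 43.3 FPKM, 0.40, adjusted p = 9.04e-04). NOSTRIN was lower in libraries labelled PARP3-/- with vehicle (-0.49, adjusted p = 0.0148) and with pyridostatin (-0.63, adjusted p = 0.00321). Each comparison called 1 of the 13, where 4.17% to 10.9% of all genes were called. The WT call of TRIP10 was lost with only the libraries of that comparison (adjusted p = 0.0546), and the vehicle call of NOSTRIN without WT vehicle replicate 3 or without vehicle replicate 1 or 2 labelled PARP3-/- (adjusted p up to 0.0578).

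The single-copy neighbours of SRGAP2 and FAM72A at 1q32.1 showed 0 calls among 7 tested with pyridostatin in each genotype (limma, with 1 at an unadjusted p under 0.05 in each). The share called over all genes was 4.17% in WT libraries and 5.56% in those labelled PARP3-/-, so few calls would be met among 7 genes. SLC41A1, a magnesium transporter gene, came nearest in WT libraries (0.11, adjusted p = 0.191), followed by the kinase gene MAPKAPK2 (-0.05, adjusted p = 0.338). In libraries labelled PARP3-/- these were the kinase gene IKBKE (-0.17, adjusted p = 0.138) and SLC41A1 (0.08, adjusted p = 0.328). Between the genotypes, MAPKAPK2 was lower (-0.12, adjusted p = 0.0269) and IKBKE higher (0.25, adjusted p = 0.0287) in libraries labelled PARP3-/- with vehicle (limma), where 9.41% of all genes were called. The call of MAPKAPK2 was kept under 14 of 20 alternatives (adjusted p up to 0.142) and that of IKBKE under 12 of 20 (up to 0.114). The call of IKBKE was also lost with quantile scaling, with libraries shifted to 1 median and with the filter at 5 FPKM. With pyridostatin, where 10.9% of all genes were called, 0 of 7 were called in limma (1 at an unadjusted p under 0.05). SLC41A1 (0.11, adjusted p = 0.133) and IKBKE (0.08, adjusted p = 0.510) had the smallest p.

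Other duplicated genes around the centromere of chromosome 1 were not called with pyridostatin either, where 4.17% (WT) and 5.56% (PARP3-/- labels) of all genes were called (limma, 0 of 13 tested in each genotype, with 1 in WT libraries and 0 in the others at an unadjusted p under 0.05). NBPF3 had the smallest p in both (0.18, adjusted p = 0.0770 in WT libraries, and 0.10, adjusted p = 0.331), followed by NBPF11 (0.11, adjusted p = 0.291) in WT libraries and GPR89B (-0.07, adjusted p = 0.345) in those labelled PARP3-/-. Between the genotypes 1 of 13 was called with pyridostatin (against 10.9% of all genes), NOTCH2NL as above, a call kept under 9 of 19 alternatives (limma, adjusted p = 0.0141 to 0.139). With vehicle 0 of 13 were called, against 9.41% of all genes (3 at an unadjusted p under 0.05). NOTCH2NL (0.14, adjusted p = 0.0809) and NOTCH2 (0.30, adjusted p = 0.114) came nearest.

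The genes whose log2 levels followed a family sum most closely over the 12 libraries were not members of the lists above. For the sum of SRGAP2 and SRGAP2B they were C17orf80 (r = 0.906), GLG1 (0.894), ZNF791 (0.869), ZNF252P (0.868) and MTERFD2 (0.868). For the sum of FAM72A, FAM72B and FAM72D they were GNG10 (0.979), SRP9 (0.960), SCOC (0.954), CXCL1 (0.952) and SLMO2 (0.948). With FAM72C in the sum none of these 5 remained among the first 5, which were CDCA7 (0.952), WRB (0.946), HSD17B11 (0.945), ZNF367 (0.937) and UBA3 (0.931). With all 4 SRGAP2 copies, ZNF252P (0.963) and C17orf80 (0.886) remained among the first 5. These are the highest of 11881 coefficients across libraries that also differ by group, and are descriptions.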

How the data were processed

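RNA-seq libraries (stranded mRNA, single-end 75-base reads) were made from 12 cultures, 3 biological replicates in each of 4 groups given by the labels. The authors deposited FPKM values in 1 table of 25365 names with 1 column per library, all of which were used. The submitters' processing notes name bcl2fastq 2.16, STAR 2.5, Cufflinks, and the builds hg19 and mm9. Which of these made the FPKM values, the annotation, the use of strand and the handling of reads that match several copies are not given in the sources used here. The count test of the study's methods does not apply to FPKM.

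Values were analysed as log2(FPKM + 1) without further scaling. On this scale the change of lowly expressed genes is understated. Those genes that averaged 1 FPKM or more (11881) were fitted with limma 3.58.1 (R 4.3.3) in 1 model of 4 groups, without a block and with a trended eBayes, with Benjamini-Hochberg adjustment over all genes tested. Intervals of differences are 95% intervals of this fit. For family sums the copies were replaced by their sum in separate fits. Genotype differences of the sums, planned as tests, are given as values, since the sums hold SRGAP2B or FAM72D. PARP3 was compared by an exact permutation test. The limma procedure was tested on simulated data. The members, gene lists and other families were chosen with earlier results of these data known, so counts within lists are descriptions.

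The genes named were the members and other copies, of each list the called genes (up to 5 by smallest p per comparison, or the 2 of smallest p where none was called), the 5 genes most correlated with each member sum, PARP3, and called copies of other families. Genes alike to the sums over all copies, and SLX1 and SMN as families with a low ratio of variances, were named after their values were seen, likewise SRGAP3. Some list genes that this rule would name are not reported here. Alternatives were a pseudocount of 0.1, no filter or one at 5 FPKM, quantile scaling, shifting libraries to 1 median, fits limited to the 6 libraries compared, no trend, the replicate number as a block, each library left out, and for the sums all copies or weights by transcript length.

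Depth was estimated from 1524 genes with 1 transcript of at least 1500 bases in GENCODE release 29, by the most frequent step among their low values (22 to 36 of 152 to 206 values per library lay at it), so read numbers are approximate and cover counting only. Coding sequences and windows came from the principal transcripts of that release (GRCh38), which is not the authors' build. Python 3.11.15 with numpy 2.4.6, pandas 2.3.3, scipy 1.17.1 and matplotlib 3.10.9 was used.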

Additional observations from a re-analysis of the deposited data

Results flagged for a closer look

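SRGAP2B was higher with pyridostatin in all 3 WT libraries than in all 3 WT vehicle libraries (log2 difference 1.52), and lower in all 3 libraries labelled PARP3-/- (-0.41). The difference between the genotypes was not tested, since the WT values chose the gene. The WT difference was 1.04 without WT vehicle replicate 2, in which SRGAP2B was near 0. Of 11881 tested genes, 29 moved without overlap in opposite directions in the 2 genotypes. The sum over all 4 SRGAP2 copies, not weighted by transcript length, did not show this pattern (0.22 and -0.04, with overlapping groups in both).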

How the results depend on the processing

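FAM72B kept its fall in libraries labelled PARP3-/- under all 20 alternatives (-0.33 to -0.25, adjusted p = 0.00346 to 0.0534) and lost the call only in the 3 left-out libraries named above. The SRGAP2 difference in these libraries, near 0, ranged from -0.05 to 0.02 with a library left out and turned to 0.01 or 0.02 without vehicle replicate 3, pyridostatin replicate 1 or pyridostatin replicate 2 labelled PARP3-/-. The member sum of FAM72 there turned to -0.16 with every copy summed, and ranged from -0.04 to 0.15 with a library left out. In WT libraries the SRGAP2 member sum moved to 0.22 with every copy and to 0.26 with FPKM weighted by transcript length, while SRGAP2B moved to 2.65 and FAM72A to -2.24 with a pseudocount of 0.1. With vehicle, the SRGAP2 member sum of libraries labelled PARP3-/- against WT ranged from 0.26 to 0.48 with a library left out. The FAM72 member sum with pyridostatin ranged from 0.16 to 0.61 between the genotypes, the highest without WT pyridostatin replicate 2. These genotype differences of sums are values without a test. SRGAP2B and FAM72D have no value with the filter at a mean of 5 FPKM, which they do not reach.

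With the replicate block the SRGAP2 member sum with vehicle remained 0.39, and the genes called numbered 411 and 589 with pyridostatin (WT and PARP3-/- labels) and 1052 and 1214 between genotypes, against 495, 661, 1118 and 1297. It changed no call of a member. Among the list genes it ended the calls of AURKB and KIF20A (pyridostatin, WT) and of AURKA, POLB and NOTCH2NL (genotype, pyridostatin). Same-numbered libraries correlated by -0.12 to 0.216, not over 0.1 in every pair of any comparison. The labels give only the number, and a shared culture or preparation was not tested. With the block the SE of SRGAP2B went from 0.332 to 0.252. With only the libraries of each comparison the calls were 65 (pyridostatin, WT), 881 (pyridostatin, PARP3-/- labels), 532 (genotype, vehicle) and 1623 (genotype, pyridostatin). With a library left out they ranged from 179 to 710, 254 to 1554, 741 to 1657 and 805 to 2294 in the order above, the highest in all 4 without WT vehicle replicate 2. Shifting libraries to a common median changed the higher and lower calls from 331 and 164 to 246 and 294 (pyridostatin, WT), from 760 and 358 to 561 and 524 (genotype, vehicle) and from 840 and 457 to 676 and 596 (genotype, pyridostatin).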
